A study of Sus scrofa with 9 samples.

Results

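The miR-30 family was examined in the pig, in MII oocytes, PN embryos and sperm. Members were taken as every listed small RNA whose name, once its species prefix was removed, began with miR-30 followed by a letter from a to e. This gave 10 names, in 11 rows, of the 1313 names in 1420 rows of the whole table, and together they cover the 5 members miR-30a, miR-30b, miR-30c, miR-30d and miR-30e. No miR-384, a miRNA with a related seed, was listed (0 rows). Of the 10 names, 8 reached a mean of at least 10 CPM, the count of a name divided by the library total and multiplied by 1000000, and the 2 below it were ssc-miR-30b-3p and ssc-miR-30c-1-3p.

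The 9 small RNA libraries comprised 3 of each group. MII oocytes are unfertilized eggs arrested in the second meiotic division. Here they were obtained from ovaries of slaughtered gilts, matured in vitro and freed of their cumulus cells. PN embryos are fertilized eggs whose pronuclei have not yet merged, and they came from in vitro fertilization of such oocytes. Sperm were purified from fresh semen of adult boars. No genetic modification was described, and the names of the groups are those of the labels. The paper names Long White gilts as oocyte donors, and for semen it names both Large White and Landrace boars. Breed and age of the donors may therefore differ between oocytes and sperm. The paper describes fertilization in a medium with caffeine and then culture of the embryos. PN embryos thus differed from MII oocytes in treatment as well as in fertilization. Oocytes and embryos were pooled in large numbers for RNA extraction, and the labels do not say whether the 3 libraries of a group came from separate animals, so that p-values measure the spread between these libraries, which may be technical.

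miRNAs are short RNAs that guide Argonaute proteins to messenger RNAs through pairing with their seed, the bases near their 5′ end. A hairpin precursor is cut into a duplex, of which the strand from the 5′ side (5p) or the 3′ side (3p) is retained. All 5 members of the miR-30 family carry the same seed on the 5p strand and are therefore predicted to share many targets, while their 3p strands differ more. The family is abundant in many tissues and is best known for roles in kidney development, in epithelial identity and in the regulation of autophagy. Each name here stands for 1 sequence variant as the submitters listed it, so that ssc marks a pig entry, ocu marks a rabbit entry, and suffixes such as R-2 are those of the table. The name ssc-miR-30d_R-2 carries no arm and was taken as the 5p strand of miR-30d, and miR-30d-3p appeared under a rabbit name.

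In the RefSeq annotation of Sscrofa11.1, the build that the submitters' processing notes name, the family is encoded by 6 hairpin genes that lie in pairs. MIR30D (chr4:6948669-6948747) and MIR30B (chr4:6952794-6952869) are 4046 bases apart and overlap no other annotated gene. MIR30C-1 (chr6:170426781-170426860) and MIR30E (chr6:170429841-170429920) are 2980 bases apart and both lie within the span of NFYC, which encodes a subunit of the transcription factor NF-Y. MIR30C-2 (chr1:51383782-51383861) and MIR30A (chr1:51412827-51412933) are 28965 bases apart and both lie within the span of the protein-coding gene LOC102157778. The 5p strand of miR-30c is the same for its 2 hairpins, and it was listed in 2 rows with equal values, which were summed. Each row was fractional in 2 oocyte and 2 embryo libraries, while the sum was whole in all of them. Such values arise when reads are divided equally between rows.

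The oocyte libraries held 289183 to 381674 counts, the embryo libraries 422630 to 771001 and the sperm libraries 1640492 to 2455102, so that depth and group cannot be told apart. miR-205 alone made up 45.2% to 49.3% of each oocyte and embryo library and no more than 0.00707% of a sperm library. Each CPM is therefore a share of a pool whose largest component differed between groups. Fewer cells of a type and less RNA per cell cannot be told apart in such bulk libraries. Of 5 germ cell markers, the miR-34b/c and miR-449 families, 4 had a name in the table. Their summed level was 2036 to 2099 CPM for oocytes, 2250 to 2455 CPM for embryos and 151499 to 153743 CPM for sperm. Of these markers miR-449c had no listed name, and miR-449b was at 0 in oocytes and embryos.

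The summed 5p strands of the family took a far larger part of the sperm libraries than of the oocyte or embryo libraries. They accounted for 4.08%, 4.51% and 4.67% of all counts in the 3 MII oocyte libraries, for 3.73%, 3.68% and 3.85% in PN embryos, and for 15.7%, 15.1% and 14.9% in sperm. The 3 groups did not overlap. The mean level was 44222 ± 3069 CPM for oocytes, 37544 ± 835 CPM for embryos and 152444 ± 3916 CPM for sperm (SD, n = 3), which made sperm 3.45-fold higher than MII oocytes and 4.06-fold higher than PN embryos. miR-30d held most of this excess, since the ratio of sperm to MII oocytes was 1.76 without miR-30d. miR-30a opposed it, and the same ratio was 5.89 without miR-30a. With miR-205 left out of the library totals, the family difference between sperm and MII oocytes fell from 1.79 to 0.86 on the log2 scale. The summed 3p strands were much lower, with 633 ± 10.5 CPM for oocytes, 505 ± 35.7 CPM for embryos and 773 ± 12.1 CPM for sperm (SD, n = 3). Opposite changes met in this sum. The mean of miR-30a-3p was 496 CPM in MII oocytes and 28.5 CPM in sperm. That of miR-30e-3p was 137 CPM in MII oocytes and 669 CPM in sperm.

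**Figure D1:**
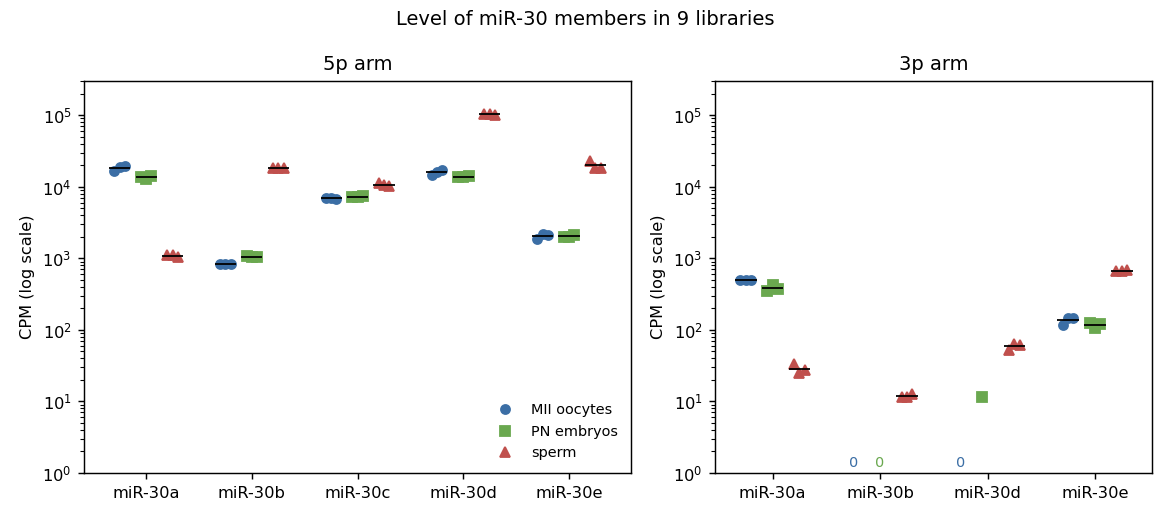
Level of the miR-30 members in each library, with the 5p strands on the left and the 3p strands on the right, in CPM on a log axis. Points are single libraries, black lines are means of 3 libraries, and a coloured 0 marks a group listed at 0 in all its libraries; miR-30c-1-3p, under 10 CPM in every library, is not drawn, nor are the 2 PN embryo libraries with miR-30d-3p at 0. The sperm points of miR-30b, miR-30d and miR-30e lie above those of both other groups, and those of miR-30a lie below them.

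miR-30d and miR-30b, the pair encoded on chromosome 4, were both much higher in sperm. miR-30d was counted at 14452, 16078 and 17266 CPM in the 3 oocyte libraries, at 13602, 13666 and 13981 CPM in the 3 embryo libraries and at 103175, 103118 and 101673 CPM in the 3 sperm libraries. It was the most abundant name of all in the 3 sperm libraries, where it took from 10.2% to 10.3% of the counts, and it ranked between 8 and 10 in the oocyte and embryo libraries. Sperm exceeded MII oocytes by 2.74 ± 0.07 (SE) on the log2 scale (edgeR quasi-likelihood test, Benjamini-Hochberg q = 6.91e-11) and PN embryos by 3.03 ± 0.07 (q = 3.32e-11).

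miR-30b showed the largest rise of the 5p strands in sperm. Its level in oocytes was 833, 835 and 844 CPM, in embryos 1072, 1027 and 1053 CPM, and in sperm 17990, 18286 and 18039 CPM. All 3 sperm libraries lay far above every other library. The log2 fold change was 4.49 ± 0.06 against MII oocytes (edgeR quasi-likelihood test, Benjamini-Hochberg q = 2.91e-13) and 4.24 ± 0.05 against PN embryos (q = 3.15e-13). In mean CPM these are ratios of 21.6 and 17.2. The 2 neighbours thus rose together but unequally, and the ratio of miR-30d to miR-30b within a library was 19.0 in MII oocytes, 13.1 in PN embryos and 5.67 in sperm (geometric means, n = 3 each).

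The 3p strands of this pair were rare. miR-30d-3p was listed at 0 in the 3 MII oocyte libraries and in 2 PN embryo libraries, had 8 counts in PN embryos 2, and had 87, 110 and 153 counts in sperm, equal to 53.0, 63.5 and 62.3 CPM. A listed 0 may stand for up to 5 reads, because few values under 5 occur in the table, and against that floor in each library sperm was at least 3.80-fold higher than MII oocytes. The edgeR quasi-likelihood test called miR-30d-3p higher in sperm than in MII oocytes (Benjamini-Hochberg q = 0.00111) and than in PN embryos (q = 0.00108). However, miR-30d-3p passed the filter on low counts only through sperm, where it was high, so this test adds no support to the counts. miR-30b-3p was listed only in sperm, with 19, 20 and 31 counts, and miR-30c-1-3p likewise, with 8, 10 and 8 counts. Both fell under the filter on low counts, and at 3.26 to 12.6 CPM they were not detectable at the depth of the oocyte libraries.

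miR-30e and miR-30c, the pair on chromosome 6, gave different calls, in that miR-30e was called higher in sperm and miR-30c was not. For miR-30e-5p the oocyte libraries gave 1837, 2212 and 2109 CPM, the embryo libraries 1989, 2003 and 2103 CPM, and the sperm libraries 23203, 18417 and 18270 CPM. Oocyte and embryo values overlapped, and all sperm values lay far above them, with sperm 1 the highest. Sperm exceeded MII oocytes by 3.34 ± 0.10 and PN embryos by 3.42 ± 0.10 on the log2 scale (edgeR quasi-likelihood test, Benjamini-Hochberg q = 3.53e-10 and 2.27e-10). The opposite strand, miR-30e-3p, had from 118 to 147 CPM across oocyte libraries, from 105 to 125 CPM across embryo libraries and from 657 to 677 CPM across sperm libraries. It too was called higher in sperm, by 2.36 ± 0.13 and 2.65 ± 0.12 (q = 2.71e-08 and 4.80e-09 by the same test).

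miR-30c-5p had the smallest fold change of the 8 names in sperm and was not called in any comparison. Oocytes had 7003, 6868 and 6785 CPM of it, embryos 7143, 7246 and 7363 CPM, and sperm 11285, 10480 and 10129 CPM. Sperm libraries were higher than all others by CPM, with a log2 fold change of 0.68 ± 0.04 against both MII oocytes (edgeR quasi-likelihood test, Benjamini-Hochberg q = 1.39e-07) and PN embryos (q = 1.34e-07), under the 2-fold limit of a call. This difference depended on the processing. With miR-205 left out of the library totals, miR-30c-5p was lower in sperm, by -0.30 and -0.32 on the log2 scale. After thinning all libraries to equal depth it was 0.07 against MII oocytes (edgeR quasi-likelihood test, Benjamini-Hochberg q = 0.243) and 0.11 against PN embryos (q = 0.0897), and with repeated rows counted once it was 0.42 and 0.43. Its 5p strand can come from the pair partner of either miR-30e or miR-30a, and the counts do not separate these 2 sources.

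miR-30a was the only member that fell in sperm, and it did so on both strands. The oocyte libraries held 16674, 19146 and 19725 CPM of miR-30a-5p, the embryo libraries 13537, 12885 and 13960 CPM, and the sperm libraries 1123, 1100 and 1044 CPM. No value of a group overlapped with another group, and the sperm mean was 17.0-fold under that of MII oocytes and 12.4-fold under that of PN embryos. The log2 fold change was -4.03 ± 0.08 against MII oocytes (edgeR quasi-likelihood test, Benjamini-Hochberg q = 1.46e-11) and -3.50 ± 0.08 against PN embryos (q = 3.70e-11). miR-30a-3p stood at 503, 491 and 494 CPM in the oocyte libraries, at 348, 427 and 376 CPM in the embryo libraries and at 33.5, 24.8 and 27.3 CPM in the sperm libraries. Its fold changes of -4.06 ± 0.14 and -3.63 ± 0.13 were close to those of the 5p strand (q = 6.48e-10 and 1.17e-09 by the edgeR test).

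**Figure D2:**
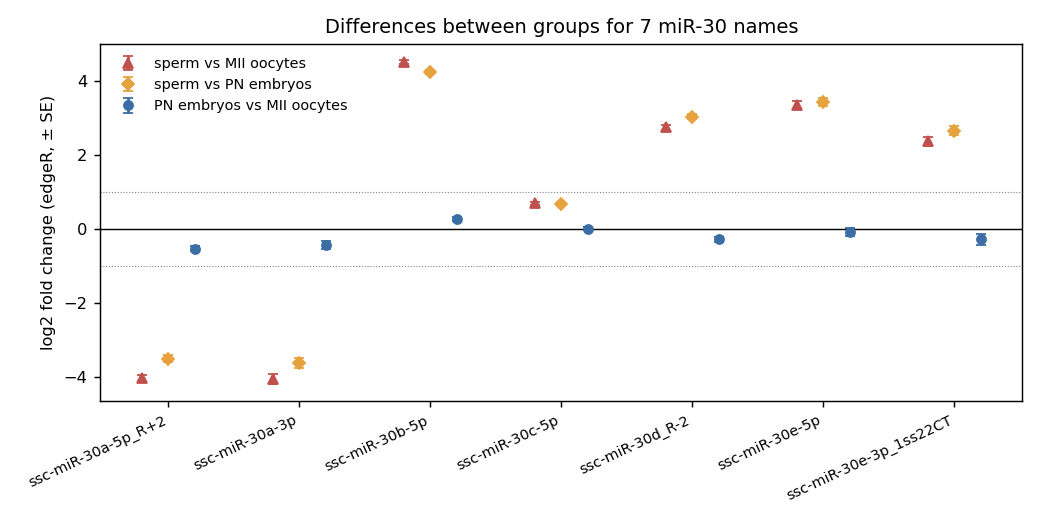
Fold change of 7 miR-30 names in the 3 comparisons, on the log2 scale, as fitted by edgeR with its standard error; dotted lines mark the 2-fold limit of a call. In both sperm comparisons the strands of miR-30a lie under -3 and miR-30b, miR-30d and miR-30e lie over 2, while all values for PN embryos against MII oocytes lie between -0.53 and 0.26. miR-30d-3p, listed at 0 in MII oocytes, is left out.

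Counted over the names that passed the filter on low counts, 7 of 8 were called between sperm and MII oocytes, at q under 0.05 and at least a 2-fold change, with 5 higher and 2 lower in sperm. Of all 587 names tested, 42.2% were called higher and 40.7% lower in that comparison. Between sperm and PN embryos, 5 of 8 were again higher and 2 lower, where 38.8% of all names were called higher and 47.4% lower. Both comparisons use the same sperm libraries, and the 5 higher names include miR-30d-3p, which passed the filter only through sperm. The median log2 fold change of the 8 names was 2.55 against MII oocytes and 2.84 against PN embryos, while that of all names was 0 and -0.52. The median of all names depended on the filter, and was 1.14 and 0.67 when 10 counts in 3 libraries were required. After the whole table was summed by miRNA and strand the same 7 of 8 were called, against backgrounds of 40.6% higher and 42.1% lower for sperm and MII oocytes and 39.4% higher and 43.5% lower for sperm and PN embryos. Most of the 587 names tested were thus called between sperm and either other group, and the counts for the family are to be read against that.

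Marker sets for other cells were read beside these values and did not all move in the same way. The 5 epithelial markers of the miR-200 family (miR-141 and miR-429 among them) summed to 1359 to 1690 CPM for oocytes, 1372 to 1556 CPM for embryos and 6391 to 6905 CPM for sperm, with miR-429 at 0 outside sperm. Of the stromal markers 3 of 4 were listed, and miR-214 had no listed name. Those listed summed to 740 to 954 CPM for oocytes, 457 to 577 CPM for embryos and 76.2 to 90.0 CPM for sperm. Their sum thus moved the same way as miR-30a. The part of such cells in the levels of the miR-30 members was not tested. Blood markers (6 of 7 listed) gave 166 to 314 CPM for oocytes, 837 to 875 for embryos and 268 to 380 for sperm. On that list miR-451a had no listed name, while miR-451 was above 0 in all groups. miR-223 was at 0 in oocytes and miR-150 at 0 in embryos. Granulosa markers (3 of 3 listed) gave 740 to 1273, 991 to 1090 and 665 to 742 CPM in the same order. Of the early embryo markers (3 of 8 listed), only miR-371 was above 0 in oocytes, at 1089 to 1286 CPM. In embryos miR-371, miR-302b and miR-302d summed to 1106 to 1267 CPM. All were at 0 in sperm.

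None of the 8 names was called between PN embryos and MII oocytes, where 12.9% of all names were called. After summing by miRNA and strand the count was also 0 of 8, where 7.84% were called. With so few names, a count of 0 lies near those shares and says little about the family. At q under 0.05 without the 2-fold limit, 1 name was higher and 3 were lower in PN embryos, against 16.7% higher and 8.52% lower of all names. The same 4 names had an unadjusted p under 0.05 in the edgeR test.

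The clearest of these small differences was a fall of miR-30a. miR-30a-5p fell by 0.53 ± 0.07 on the log2 scale (edgeR quasi-likelihood test, Benjamini-Hochberg q = 5.14e-04), with all 3 embryo libraries under all 3 oocyte libraries. miR-30a-3p differed by -0.44 ± 0.12 (edgeR q = 0.0196), again without overlap. Its q lay under 0.05 in 11 of 21 alternative analyses, and without MII oocytes 1 it was 0.401 at a fold change of -0.29.

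Smaller differences of opposite sign separated the pair on chromosome 4. miR-30d was lower in PN embryos by -0.28 ± 0.07 (edgeR quasi-likelihood test, Benjamini-Hochberg q = 0.00948), and miR-30b was higher by 0.26 ± 0.06 (q = 0.00764). Leaving out MII oocytes 1 or PN embryos 2 took the q of miR-30d to 0.191 or 0.122, and leaving out PN embryos 2 or PN embryos 3 took that of miR-30b to 0.102 or 0.0943. The remaining names gave -0.08 ± 0.10 for miR-30e-5p (q = 0.672), -0.29 ± 0.15 for miR-30e-3p (q = 0.222) and 0.0046 ± 0.045 for miR-30c-5p (q = 1). For miR-30d-3p, seen in 1 of these 6 libraries at 8 counts, no fold is given (q = 0.308 by the edgeR test).

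The make-up of the family differed between the groups, and a share within the family does not use the library total. miR-30a and miR-30d made up most of the 5p counts of MII oocytes, at 41.8% ± 0.840 and 36.0% ± 0.831, followed by miR-30c at 15.6% ± 1.37, miR-30e at 4.64% ± 0.227 and miR-30b at 1.90% ± 0.126 (SD, n = 3). In PN embryos miR-30a and miR-30d were nearly level, at 35.8% ± 0.743 and 36.6% ± 0.417, and miR-30c, miR-30e and miR-30b held 19.3% ± 0.311, 5.41% ± 0.0755 and 2.80% ± 0.0666. In sperm miR-30d alone held 67.4% ± 1.34, with miR-30e at 13.1% ± 1.498, miR-30b at 11.9% ± 0.353, miR-30c at 6.97% ± 0.208 and miR-30a at 0.714% ± 0.0135.

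By these shares miR-30a came first in oocytes and last in sperm. Neighbours whose CPM ranges overlapped were miR-30a with miR-30d in MII oocytes and in PN embryos, and miR-30e with miR-30b in sperm. Other neighbours were apart. Within single libraries miR-30d was 0.840 to 0.875 times miR-30a in MII oocytes and 1.002 to 1.061 times in PN embryos. miR-30e was 1.01 to 1.29 times miR-30b within sperm libraries. A comparison of levels between miRNAs also carries the differing ligation and amplification of each sequence, which were not measured. The shares rest on summing the 2 rows of miR-30c-5p, whose values look like reads divided between rows. Counting them once would then leave out a part of the reads. With these rows counted once, the miR-30c share in sperm differed from that in MII oocytes by -4.87 rather than -8.66 percentage points, from that in PN embryos by -7.08 rather than -12.3, and the share in PN embryos from that in MII oocytes by 2.21 rather than 3.68. The shares of 5 members in 3 comparisons gave 15 exact permutation tests (two-sided). In 14 of them p was 0.1, the smallest value that 3 against 3 libraries can give, so that p under 0.05 could not be reached. The exception was miR-30d in PN embryos against MII oocytes, where the share differed by 0.631 percentage points (exact permutation p = 0.3). That difference was 1.498 with repeated rows counted once, 0.391 without PN embryos 2, 0.344 without MII oocytes 1 and 1.11 without MII oocytes 3.

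**Figure D3:**
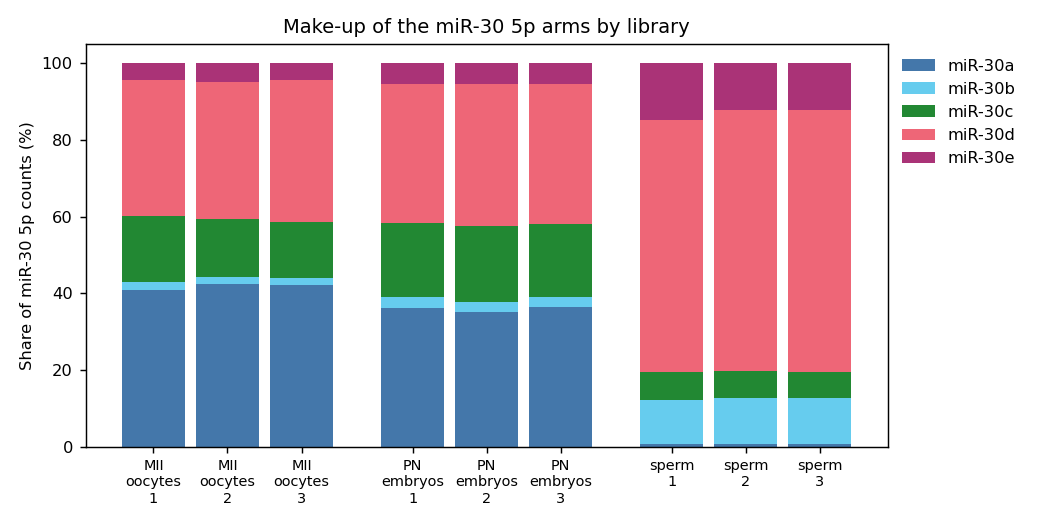
Share of each member in the miR-30 5p counts of each library, in percent; each stacked bar is 1 library and sums to 100. The miR-30a segment takes from 34.99% to 42.4% of the oocyte and embryo bars and about 0.7% of the sperm bars, and miR-30d takes from 65.8% to 68.2% of the sperm bars.

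Ratios between members within a library do not depend on normalization. miR-30d was 0.860 times miR-30a in MII oocytes, 1.02 times in PN embryos and 94.3 times in sperm (geometric means, n = 3). miR-30a, encoded near a miR-30c hairpin, was 2.68 times miR-30c in MII oocytes, 1.86 times in PN embryos and 0.103 times in sperm. The other neighbour of a miR-30c hairpin, miR-30e, was 0.297 times miR-30c in MII oocytes, 0.280 times in PN embryos and 1.87 times in sperm. The ratio of the neighbours miR-30d and miR-30b, given above, did differ between the groups. Ratios to miR-30c pool both of its hairpins, so they cannot show whether neighbours kept a fixed ratio. Counting 1 of the 2 equal rows of miR-30c-5p would change its ratios by the same factor in every library. For miR-30e and miR-30b, encoded on different chromosomes, the ratio was 2.20 to 2.65 across oocyte libraries, 1.86 to 2.00 across embryo libraries and 1.01 to 1.29 across sperm libraries. Of the ratios described, every comparison between 2 groups gave an exact two-sided permutation p of 0.1, the smallest possible, except miR-30e to miR-30c in PN embryos against MII oocytes (exact permutation p = 0.4).

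**Figure D4:**
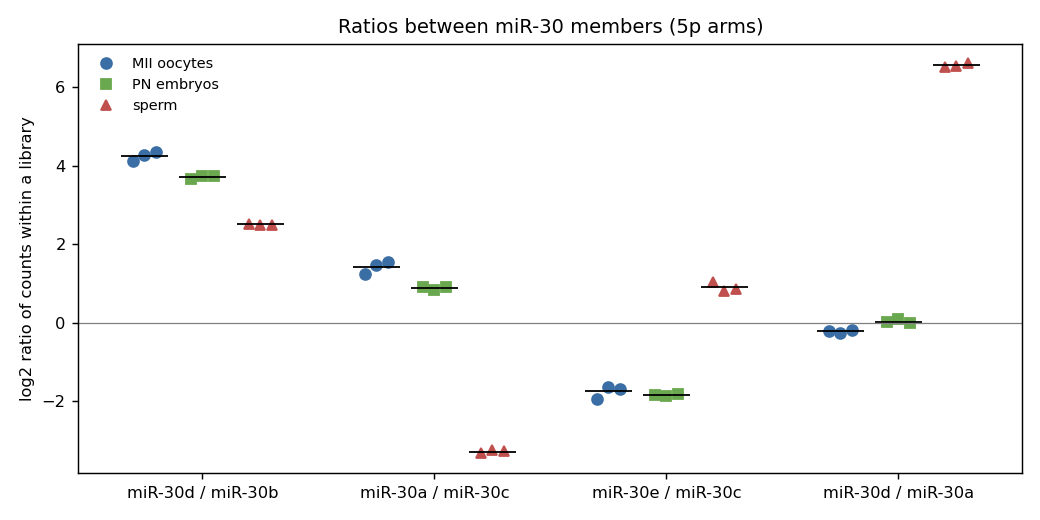
Ratio of counts between pairs of miR-30 5p strands within each library, on the log2 scale; points are libraries and black lines are means of 3. Within a pair the sperm points lie apart from the oocyte and embryo points, most for miR-30d over miR-30a (6.56 in sperm, -0.22 in MII oocytes and 0.03 in PN embryos).

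The balance of the strands could be followed for miR-30a and miR-30e, whose 2 strands both reached 10 counts in every library. For miR-30a the log2 ratio of 5p to 3p was 5.21 ± 0.145 in MII oocytes, 5.13 ± 0.195 in PN embryos and 5.25 ± 0.201 in sperm (SD, n = 3). The 3 ranges overlapped, and exact two-sided permutation tests gave p = 0.5 for embryos with oocytes, 0.9 for sperm with oocytes and 0.5 for sperm with embryos. A 17-fold fall of miR-30a in sperm thus took place with strand ratios between 33.5 and 44.4 in sperm and between 33.1 and 39.9 in MII oocytes. For miR-30e the same log2 ratio was 3.90 ± 0.0510 in MII oocytes, 4.11 ± 0.135 in PN embryos and 4.89 ± 0.219 in sperm, without overlap in any comparison (exact permutation p = 0.1 each). Among the other miRNAs with both strands at that depth, the ratio did not overlap in 57.1% of 14 between PN embryos and MII oocytes, in 100% of 11 between sperm and MII oocytes and in 100% of 12 between sperm and PN embryos, with median absolute differences of 0.446, 1.14 and 1.12. The miR-30e differences of 0.211, 0.995 and 0.784 lay under all 3 medians, and the first of them was 0.0596 after thinning to equal depth.

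Similar sequences can share reads. Fractional counts, which arise when a read is divided among names, occurred for miR-30a-5p in the 3 sperm libraries, for miR-30b-5p in 2 sperm libraries, for each row of miR-30c-5p in 2 oocyte, 2 embryo and 3 sperm libraries and for its sum in 2 sperm libraries, for miR-30d in 2 PN embryo libraries, and for miR-30e-5p in 2 PN embryo and 3 sperm libraries. How many reads were divided is not known from the table, and levels of the 5p strands are uncertain to that extent. No 3p name of the family had a fractional count, and miR-30a-3p and miR-30e-3p changed in the same direction as their 5p partners in sperm. No member had the same counts as another name (0 of 10).

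**Figure D5:**
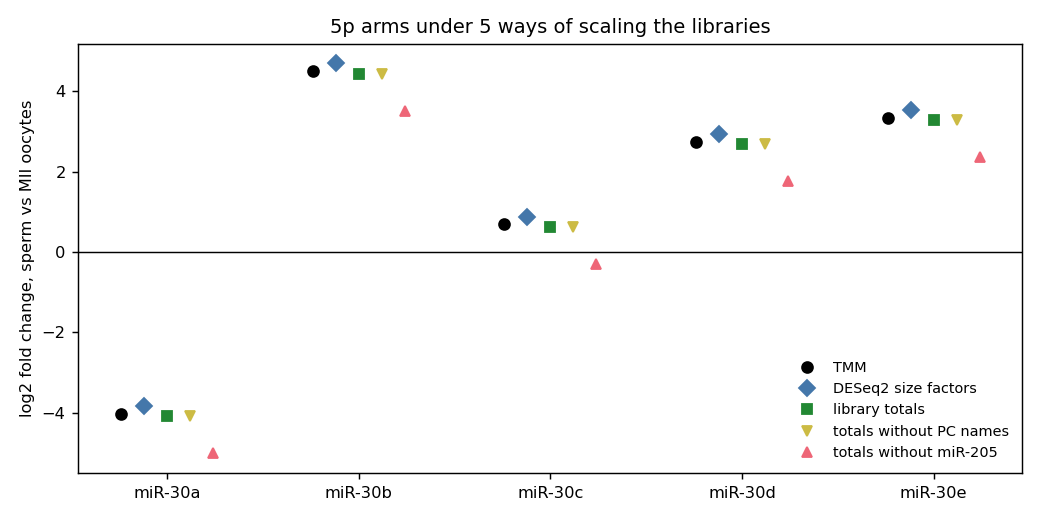
Fold change of the 5p strands between sperm and MII oocytes, on the log2 scale, under 5 ways of scaling the libraries. Leaving miR-205 out of the totals lowers each value by about 1, which takes miR-30c from 0.68 to -0.30 and leaves miR-30a at -5.02, miR-30b at 3.51, miR-30d at 1.76 and miR-30e at 2.36.

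Scaling moved the members together. With miR-205 left out of the library totals, the median over all 587 names went, on the log2 scale, from 0 to -0.82 between sperm and MII oocytes and from -0.52 to -1.52 between sperm and PN embryos, and the same 7 members were still called in each. miR-30c-5p at -0.30 and -0.32 lay above those medians. DESeq2 size factors moved the 2 medians by 0.12 and 0.20, and thinning to equal depth, with fewer names passing the filter, moved them by -0.57 in both.

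The 5 names outside the family whose pattern lay nearest to the summed 5p strands were found by the distance between 2 differences of mean log2(CPM + 1), sperm minus MII oocytes and PN embryos minus MII oocytes, among 530 candidates over the 9 libraries. The family itself had differences of 1.79 and -0.23. The nearest was ssc-miR-18a_R+2, a member of the miR-17/92 group, at a distance of 0.044 with 59.7 ± 0.822 CPM for oocytes, 50.7 ± 15.3 for embryos and 210.3 ± 16.7 for sperm (SD, n = 3). It was followed by ssc-miR-29a-3p_L-1R-1 (0.11), ssc-miR-151-3p_R-1 (0.13), ssc-miR-140-3p_R-1 (0.19) and ssc-miR-17-3p_R-2 (0.43). Single members lay further from the family sum than all 5 of these, from 0.90 for miR-30d to 5.87 for miR-30a. The name ssc-miR-17-3p_R-2 was low and variable, at 27.7 ± 28.4 CPM for oocytes, 16.5 ± 16.9 for embryos and 31.9 ± 12.8 for sperm (SD, n = 3). It was not called between sperm and MII oocytes (edgeR quasi-likelihood test, Benjamini-Hochberg q = 0.786).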

How the data were processed

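Small RNA libraries of 3 MII oocyte, 3 PN embryo and 3 sperm samples were sequenced, and the authors deposited expected counts per small RNA name, not normalized, some of them fractional where reads were divided among names. The submitters' processing notes name the build Sscrofa11.1. The aligner and annotation release are not given in the sources used here. Rows of the same name were summed. CPM used the library total (289183 to 2455102 counts). 3 counts equal 10.4 CPM in the smallest library, and such floors cover counting error only.

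Counts were rounded and compared with the edgeR 4.0.16 quasi-likelihood test in R 4.3.3 (TMM, filterByExpr with a minimum count of 10, all 9 libraries, group only, Benjamini-Hochberg adjustment over all 587 names). A call needed q under 0.05 and a log2 fold change of 1 or more in either direction, the thresholds of the study. Shares, strand ratios (0.5 added to each count) and member ratios were compared by exact permutation tests in scipy 1.17.1. A test of isomiR shares was void, since each member and strand had 1 name. The fit was tested on simulated data. Named miRNAs were all miR-30 names, miR-384 and the 5 nearest names. Members, lists and rules were chosen with earlier results of these data known. Alternatives were other scalings, filters and tools (DESeq2 1.42.0), depth thinning, the replicate block and leaving out each library.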

Additional observations from a re-analysis of the deposited data

How the results depend on the processing

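In the sperm comparisons the 7 called names kept their call and direction under all 21 alternatives, including DESeq2's Wald test, depth thinned to 289180 counts and each library left out. Among these alternatives, a call at q alone without the 2-fold limit could not remove any name. The 7 names include miR-30d-3p, which passed the filter on low counts only through sperm, so its kept call adds no support. Dropping the 2-fold limit raised the count of names called between PN embryos and MII oocytes from 0 to 4, at the level of names and of miRNA strands alike. The summed 5p difference of sperm and MII oocytes on the log2 scale was 1.79, and became 2.04 with DESeq2 size factors and 0.86 without miR-205 in the totals. For sperm against PN embryos it was 2.02, and became 2.35 with DESeq2 size factors, 1.15 without miR-205, 2.14 with repeated rows counted once, and 2.15 with TMM library sizes, an alternative chosen after seeing the data.

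miR-30c-5p turned to -0.3006 and -0.3212 in sperm against MII oocytes and PN embryos without miR-205 in the totals, as that scaling lowers all names. After thinning it was 0.071 and 0.105 (edgeR q = 0.243 and 0.0897). Between PN embryos and MII oocytes its value of 0.0046 became -0.0023 with DESeq2 size factors, -0.0019 with DESeq2's test, -0.028 with 10 counts in 3 libraries, -0.0051 without a filter, -0.025 with only these 2 groups, -0.0083 with repeated rows counted once and -0.034 after thinning, and ranged from -0.015 to 0.15 with a library left out. The log2 strand ratio of miR-30a in PN embryos minus MII oocytes ranged from -0.16 to 0.031 with a library left out. For sperm minus MII oocytes it was 0.039, turned to -0.035 with 5 added to each count, became 0.264 after thinning, and ranged from -0.063 to 0.14 with a library left out. The cause of these small changes was not tested.

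Same-numbered libraries did not deviate together (correlations from -0.197 to 0.0477, 0 of 3 pairs over 0.1 in each comparison), so the numbers were not taken as pairs. With the replicate block 7 names were called in each sperm comparison and 0 between PN embryos and MII oocytes. The replicate block left the sperm calls as they were and took miR-30a-3p between PN embryos and MII oocytes to q = 0.0821. Depth limited the 3p strands, since 5 reads equal 17.3 CPM in the smallest oocyte library.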
